A study of Mus musculus with 39 samples.

Results

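The cytosolic chaperonin CCT (also called TRiC) is a double-ring folding machine built from 8 related subunits. Each ring holds 1 copy of every subunit around a central chamber, ATP binding and hydrolysis close a built-in lid over the chamber, and actin and tubulin are the best-known proteins that need it to fold. The subunit genes are Tcp1 (the alpha subunit), Cct2 (beta), Cct3 (gamma), Cct4 (delta), Cct5 (epsilon), Cct6a (zeta), Cct7 (eta) and Cct8 (theta). These 8 genes were taken by name, and all 8 had a row in both tables, out of 13230 genes that the tables share. The question was how alike the RNAs of the 8 subunits, whose proteins assemble in equal numbers, ran through a sucrose gradient.

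RNA was sequenced from fractions of 2 gradients (the ATLAS-Seq method), which the study describes as independent biological replicates, made from livers of wild-type FVB female mice. Age and whether livers were pooled are not given in the sources used here. The livers were homogenized with beads in buffered sucrose without detergent, with ribonucleoside-vanadyl complex as a ribonuclease inhibitor, nuclei were spun out, and the rest was spread by ultracentrifugation. For gradient 1, fractions 4 to 19 and 21 were sequenced (17 libraries). For gradient 2, fractions 3 to 24 were (22 libraries). Higher fraction numbers mean higher sucrose density. No library was treated, so the comparisons are between positions in the gradient, and the only replicates of a position are the 2 gradients. Values are TPM, the length-corrected share of an RNA in its library, scaled to the same total in every library. Each library was made from the same mass of RNA, so the values say nothing of how much RNA a fraction held. The homogenate mixes the RNA of all cell types of the liver.

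As a check of the tissue, 8 hepatocyte markers such as Alb summed to between 13999 and 65694 TPM in the libraries of gradient 1 and between 26971 and 46929 in gradient 2. The summed level of 6 Kupffer cell markers never passed 169 TPM, of 5 sinusoidal endothelial markers 68.8 TPM, and of 4 stellate cell markers 75.3 TPM. The 3 red cell markers with a row summed to between 53.4 and 633 TPM, while Hbb-bs and Hbb-bt had no row. Between 10532 and 12558 genes passed a TPM of 1 in each library. The number of reads behind a value is unknown, because TPM keeps no counts.

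The 8 genes lie on 8 chromosomes (GENCODE M21, build GRCm38, which is mm10). Tcp1 is at chr17:12915701-12925067 on the + strand, Cct2 at chr10:117051001-117063814 on the - strand, Cct3 at chr3:88297116-88321767 on the + strand, and Cct4 at chr11:22990519-23003780 on the + strand. Cct5 is at chr15:31590800-31601804 on the - strand, Cct6a at chr5:129786998-129846371 on the + strand, Cct7 at chr6:85451514-85468475 on the + strand, and Cct8 at chr16:87483326-87495873 on the - strand. All but Cct6a carry an annotated coding part there, and those 7 are close in size, from 1605 bases in Cct2 to 1668 in Tcp1 without the stop codon. The 3′ UTRs of the same transcripts differ more, from 131 bases in Cct5 to 665 in Cct8, with 594 in Tcp1 and 632 in Cct4. GENCODE M21 lists Cct6a as a processed transcript with no coding part, whereas RefSeq, whose transcripts the authors used, lists it as protein coding. For Cct6a the longest reading frame of its transcripts, of 1596 bases, was used in what follows.

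The subunits are paralogs, and the RNA that encodes their shared ATP-binding region shows how far the sequences have drifted apart where they are most alike. The 12 bases in capitals are the in-frame coding window of Tcp1 with the fewest differences from its counterparts in the other 7 genes, where a counterpart could lie at most 60 bases away in coding position and differ at no more than 4 bases. Each line gives 30 coding bases, 5′ to 3′ on the coding strand, and all 8 genes had a counterpart. The letters common to all 8, NCNAANGANGNN with N for any base, are not particular to these genes: searched in frame on the coding strand, they occurred in 26.2% of 21877 coding genes, and Cct6a and Cct8 held them 2 times.

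Tcp1: accattACTAACGATGGTgccaccatcctg
Cct2: atggtgACCAACGACGGTgctaccattctc
Cct3: gtgatgACCAATGATGGCaatgccattctt
Cct4: accattACAAATGATGGTgccaccattctg
Cct5: actataACAAACGATGGTgccaccattcta
Cct6a: aaacttACTAAAGATGGCaatgtgctgctt
Cct7: acaataTCTAATGATGGGgccacaattctg
Cct8: tttgtgACAAACGATGCAgcgactatttta

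Each of these stretches lies within 1 exon. They are at chr17:12918049-12918078 (+) for Tcp1, chr10:117062068-117062097 (-) for Cct2, chr3:88300956-88300985 (+) for Cct3 and chr11:22994322-22994351 (+) for Cct4. Those of the others are at chr15:31597508-31597537 (-) for Cct5, chr5:129788259-129788288 (+) for Cct6a, chr6:85459950-85459979 (+) for Cct7 and chr16:87493719-87493748 (-) for Cct8. Over the 28 pairs of genes, the capital bases differed at 1 to 5 positions and the 30 bases at 3 to 19, with a median of 11.5.

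Close paralogs can share reads, so the transcripts were searched for shared runs of 31 bases. No run of the transcript with the longest coding part of any subunit occurred in a transcript of another subunit. Processed pseudogenes held 13.1% of the runs of Cct3, 7.55% of those of Cct7 and 3.50% of those of Cct4. None of these pseudogenes, Cct3-ps1 and Tcp1-ps1 included, had a row in the tables. In Tcp1 2.36% of the runs occurred in another gene and 0.662% in a gene with a row. In Cct2 and Cct6a the shared part was 0.104% and 0.0637%, and in Cct5 and Cct8 it was 0. Cct6b, the paralog of Cct6a, averaged 0.844 TPM in gradient 1 and 1.06 TPM in gradient 2.

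The RNAs of the 8 subunits were close in mean level. Over the 17 fractions that both gradients have, Cct5 averaged 268 ± 15.7 TPM (SD, n = 2 gradients), which was the highest mean in both gradients. Cct4 averaged 133 ± 7.08 TPM and was the lowest in both. The other 6 lay between, with 177 ± 3.96 for Cct2, 175 ± 5.02 for Tcp1 and 172 ± 20.4 for Cct3. Cct8 averaged 166 ± 15.1 TPM, Cct6a 159 ± 20.5 TPM and Cct7 151 ± 4.83 TPM. Only the gap below Cct5, 91.1 TPM, and the gap above Cct4, 18.2 TPM, exceeded the SD of both neighbors in the order, while the gaps between the 6 others were 1.98 to 7.96 TPM and the order of Cct3 against both Cct2 and Tcp1, and of Cct6a and Cct7, turned between gradients.

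Summed over the 8 subunits, CCT RNA took a larger share in denser fractions. The sum was 636 TPM at fraction 4 of gradient 1 and 732 TPM at fraction 4 of gradient 2, and 2198 and 1992 TPM at fraction 19. In the light zone, taken as fractions 4 to 7, the sum averaged 843 ± 0.666 TPM (SD, n = 2). It averaged 1263 ± 69.1 TPM in the middle zone of fractions 10 to 13, and 2026 ± 185 TPM in the dense zone of fractions 16 to 19. The climb had a break, because the sum passed a first peak at fraction 6, of 1014 TPM in gradient 1 and 967 TPM in gradient 2. It fell back to 817 TPM at fraction 8 in gradient 1 and 831 TPM at fraction 7 in gradient 2 before it climbed.

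**Figure D1:**
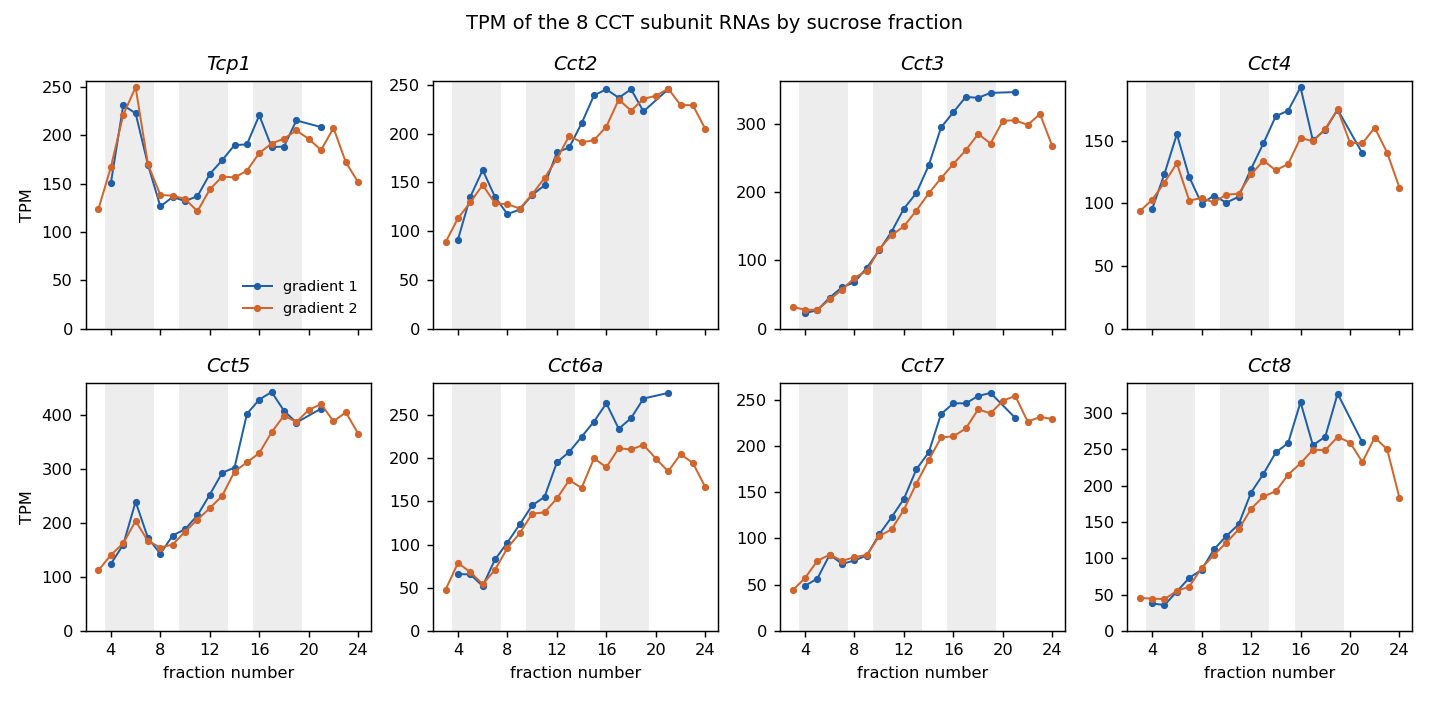
TPM of each CCT subunit RNA (y axis, from 0, scaled per gene) against fraction number (x axis), as 1 point per library joined by lines, in gradient 1 (blue, fractions 4 to 19 and 21) and gradient 2 (orange, fractions 3 to 24). Gray bands mark the light, middle and dense zones. Cct3 and Cct8 climb from the light to the dense fractions, whereas Tcp1 has its highest point at fraction 5 or 6.

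That first peak belonged to part of the subunits, and the members fell into different shapes. Tcp1, the founding subunit of the family, was highest near the top of the gradient. Its lowest, median and highest values were 126, 188 and 231 TPM in gradient 1, with the highest at fraction 5. They were 121, 168 and 249 TPM in gradient 2, with the highest at fraction 6. Tcp1 dropped from there to its lowest value at fraction 8 in gradient 1 and fraction 11 in gradient 2 and then climbed again, to 215 and 205 TPM at fraction 19.

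Cct4, Cct2 and Cct5 had a smaller peak at fraction 6 in both gradients. Cct4 reached 155 TPM there in gradient 1 and 132 TPM in gradient 2, against 99.8 and 104 TPM at fraction 8. Cct2 reached 163 and 147 TPM, against 117 and 128 TPM at fraction 8. For Cct5 the values were 239 and 204 TPM, against 143 and 155 TPM. Unlike Tcp1, these RNAs were highest in denser fractions. Cct4 had its highest value of 193 TPM at fraction 16 of gradient 1 and of 175 TPM at fraction 19 of gradient 2, with lowest values of 95.5 and 93.7 TPM and medians of 140 and 129 TPM. Cct2 ran from 91.3 to 245 TPM (median 181) in gradient 1 and from 88.7 to 246 TPM (median 192) in gradient 2. Cct5 ran from 124 to 443 TPM (median 253) and from 112 to 421 TPM (median 273). The lowest value of each of the 3 was in the lightest fraction sequenced, in both gradients.

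Cct3, Cct8 and Cct6a had no peak at fraction 6. Cct3 rose at every step but 1 in gradient 1, from 22.6 TPM at fraction 4 to 346 TPM at fraction 21 (median 176), and in gradient 2 from 27.5 TPM at fraction 5 to 314 TPM at fraction 23 (median 185). Cct8 rose from 35.5 TPM at fraction 5 to 327 TPM at fraction 19 in gradient 1 (median 191) and from 43.7 TPM to 267 TPM at the same fractions of gradient 2 (median 184). Cct6a ran from 51.9 to 276 TPM in gradient 1 (median 195) and from 47.6 to 215 TPM in gradient 2 (median 166). At fraction 6, where Tcp1, Cct2, Cct4 and Cct5 were high, Cct6a dipped to 51.9 TPM in gradient 1, with 65.4 and 82.7 TPM on either side, and to 53.9 TPM in gradient 2, with 68.0 and 70.8 TPM on either side. Cct7 was between the shapes, with 82.5 TPM at fraction 6 in both gradients, about the level of fraction 9, and a climb to 258 TPM at fraction 19 of gradient 1 and 254 TPM at fraction 21 of gradient 2. Its lowest values were 48.7 and 43.8 TPM and its medians 143 and 172 TPM.

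The size of the light peak was taken, after the profiles had been seen, as the mean of fractions 5 and 6 over the mean of fractions 8 and 9. The ratio was 1.73 for Tcp1 in gradient 1 and 1.71 in gradient 2. It was 1.35 and 1.21 for Cct4, 1.25 and 1.16 for Cct5, and 1.24 and 1.1 for Cct2. Cct7 had 0.881 and 0.977, and Cct6a 0.520 and 0.583. For Cct3 it was 0.463 and 0.443, and for Cct8 0.456 and 0.517. All 8 subunits kept their side of 1 in both gradients. On the log2(TPM + 1) scale Tcp1 had a difference of 0.78 and 0.77, where the median over all genes was -0.11 in both gradients.

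The introns of Tcp1 hold a small nucleolar RNA gene on the same strand, Snora20 (chr17:12922790-12922917), with a row of its own. Snora20 was highest at fraction 6 in both gradients, with 567 and 789 TPM, and averaged 280 TPM in the light zone of gradient 1 and 455 TPM in that of gradient 2, against 108 and 62.1 TPM in the dense zones. The part of Snora20 in the light peak of Tcp1 was not tested, and it lies outside the exons of the longest coding transcript. Cct6a holds Snora15 on the same strand, over an exon of the transcript used here. Snora15 had a row in gradient 2 only, where it reached 66.0 TPM at fraction 4, the fraction at which Cct6a stood at 78.6 TPM, and it averaged 16.5 TPM in the light zone and 0 in the dense zone. Its part in the level of Cct6a was not tested. Acat3 overlaps the 3′ end of Tcp1 on the opposite strand, and its level went from 134 and 150 TPM in the light zones to 996 and 816 TPM in the dense zones. The libraries are stranded, but whether strand was used in the quantification is not given in the sources used here.

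Read as shares of the summed CCT TPM, the makeup of the subunit RNA changed with density. An equal share would be 12.5%. In the light zone Tcp1 took 23.4% ± 0.499 (SD, n = 2) and Cct3 4.57% ± 0.0337, and in the dense zone Tcp1 took 9.80% ± 0.578 and Cct3 14.7% ± 1.12. The ratio of Cct3 to Tcp1 turned over on the way. Cct8 went from 6.00% ± 0.0905 to 13.3% ± 0.237, Cct6a from 8.19% ± 0.0478 to 11.3% ± 0.590, and Cct7 from 8.15% ± 0.652 to 11.8% ± 0.201. Cct4 went the other way, from 14.1% ± 0.879 to 8.12% ± 0.401, and Cct2 from 15.4% ± 0.0587 to 11.5% ± 0.611. For each of these 7 the light and dense shares differed by more than the SD of either zone, in the same direction in both gradients. The share of Cct5 moved less, with 20.2% ± 0.386 in the light zone, 18.0% ± 0.113 in the middle zone and 19.5% ± 0.157 in the dense zone, although these differences also exceeded the SDs. Over single fractions it ran from 17.1% to 23.6% in gradient 1 and from 17.5% to 21.8% in gradient 2.

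**Figure D2:**
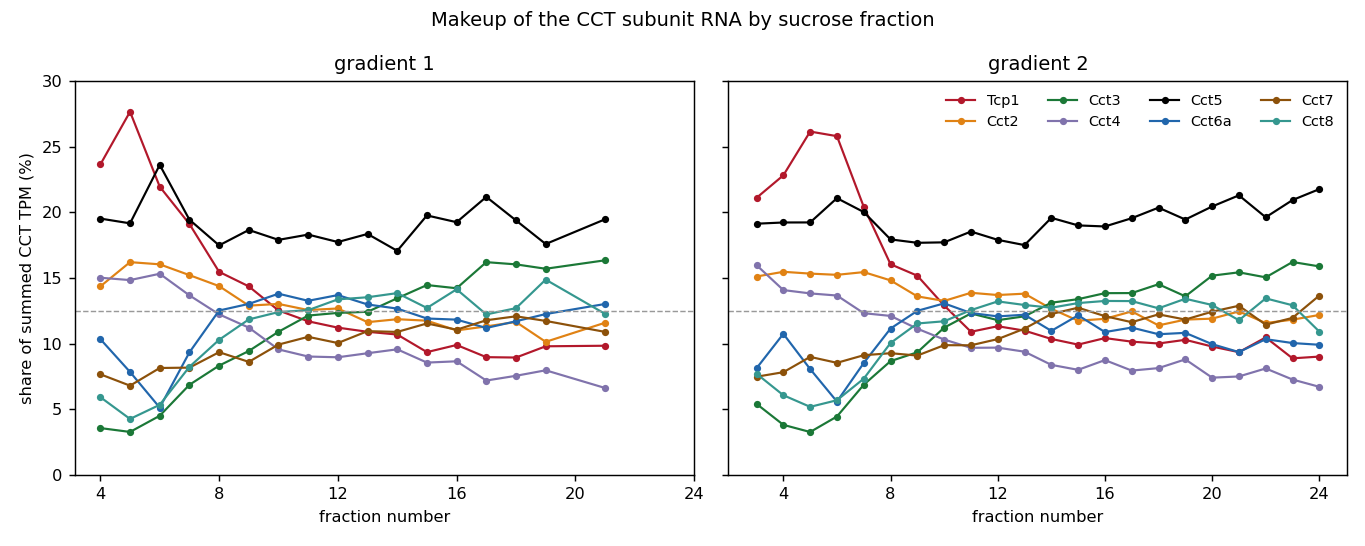
Share of each subunit in the summed TPM of the 8 CCT RNAs (y axis, percent) against fraction number (x axis), 1 point per library, in gradient 1 (left) and gradient 2 (right), with a dashed line at an equal share of 12.5%. Tcp1 falls from over 20% in fractions 4 to 6 to about its level in the dense zone by fraction 15, Cct3 rises from its lowest share at fraction 5, and Cct5 stays between 17.1% and 23.6%.

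The spread between the subunits was therefore widest near the top. The highest of the 8 values was 8.47 times the lowest at fraction 5 of gradient 1, where Tcp1 was highest and Cct3 lowest. At fraction 14 of that gradient it was 1.79 times. The coefficient of variation over the 8 subunits was 67.7% at fraction 5 of gradient 1 and 63.0% at fraction 6 of gradient 2, and its lowest values were 18.8% at fraction 14 and 19.4% at fraction 13.

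The zones were compared with limma, using the mean of log2(TPM + 1) over the 4 fractions of a zone in each gradient, with an adjusted p under 0.05 over all 11754 genes tested as the call. Differences on this scale slightly understate those of low genes. All 8 subunits passed the filter of a mean of 1 TPM.

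From the light to the dense zone, 7 of the 8 CCT RNAs rose and none fell, against 22.3% of all genes tested that rose and 39.6% that fell. The median difference was 1.49 over the 8 and -0.43 over all genes. These shares include genes of far lower level than the CCT RNAs. Among the 7233 genes with a mean of at least 10 TPM, 2228 were called higher and 2570 lower, and 7 CCT RNAs were called. Cct3, the gamma subunit, had the greatest rise, from 39.1 and 38.8 TPM in the light zones of gradients 1 and 2 to 335 and 265 TPM in the dense zones (difference 2.99 ± 0.17 SE, n = 2, adjusted p = 3.0e-04 by limma). Cct8 rose from 50.0 and 51.0 TPM to 291 and 249 TPM, a difference of 2.42 ± 0.16. Cct7 rose by 1.80 ± 0.16 and Cct6a by 1.77 ± 0.18. In these 4 genes every dense fraction was above every light fraction in both gradients, which held for 21% of all genes tested.

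Cct5 rose from 174 and 168 TPM to 417 and 371 TPM (1.22 ± 0.15), and Cct2 from 131 and 130 TPM to 237 and 225 TPM (0.84 ± 0.14), again with no overlap of fractions. Cct4 rose the least of those called, from 124 and 114 TPM to 169 and 159 TPM (0.48 ± 0.14, adjusted p = 0.0308 by limma), and its fractions overlapped in gradient 1. Its call was lost with quantile normalization (0.28, adjusted p = 0.113 by limma) and with zones of 3 fractions (0.43, adjusted p = 0.0535 by limma). Tcp1 stood at 193 and 202 TPM in the light zones and 203 and 193 TPM in the dense zones, a difference of 0.02 ± 0.14 (adjusted p = 0.896 by limma), with a positive value in gradient 1 (0.09) and a negative value in gradient 2 (-0.04). Quantile normalization, which makes the distribution of values the same in every library, gave a more even background, with 30.7% of genes higher and 29.9% lower, and called 6 of the 8 subunits higher. With the block, which left 7 of the 8 called higher, the background was 30.5% higher and 50.0% lower.

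Between the light and the middle zone the calls differed between subunits. Cct3 (1.99 ± 0.17), Cct8 (1.68 ± 0.16), Cct6a (1.27 ± 0.18) and Cct7 (0.92 ± 0.16) rose, with every middle fraction above every light fraction in both gradients, which held for 24.8% of all genes. By limma, 23.5% of all genes tested were called higher and 24.1% lower. Among the 7233 genes with a mean of at least 10 TPM, 2493 were called higher and 1472 lower. The other 4, which are the subunits with a light peak, did not pass: the difference was 0.42 ± 0.15 for Cct5, 0.34 ± 0.14 for Cct2, 0.01 ± 0.14 for Cct4 and -0.43 ± 0.14 for Tcp1 (adjusted p = 0.0528 by limma). Tcp1 went from 193 and 202 TPM to 151 and 139 TPM.

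Zones of 1 gradient share a homogenate, and a fit with the gradient as a block takes out what they share. This block called 7 subunits between the light and the middle zone, with Cct5 (adjusted p = 0.0136 by limma) and Cct2 (adjusted p = 0.0241 by limma) higher and Tcp1 lower (adjusted p = 0.0127 by limma). It called 37.2% of all genes higher and 35.0% lower, where the count of genes called went from 5589 to 8478. Zones of 3 fractions also called Cct5 higher (0.51, adjusted p = 0.0414 by limma), and the fit over single fractions called Cct2 and Cct5 higher. Tcp1 was called lower without the block as well in 5 of the alternatives: with no filter on TPM (adjusted p = 0.0494 by limma), a mean of at least 10 TPM (adjusted p = 0.0466), the 50 most abundant genes left out of the scaling (-0.57, adjusted p = 0.0169), quantile normalization (-0.93, adjusted p = 0.00373) and the fit over single fractions, which takes fractions of the same gradient as if they were replicates. With quantile normalization the background was 26.9% of all genes higher and 24.2% lower, and the differences of Cct2 (-0.028) and Cct5 (-0.033) were below 0.

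From the middle to the dense zone, all 8 CCT RNAs had a positive difference, in a comparison in which most called genes fell. Cct3 (1.00 ± 0.17), Cct7 (0.88 ± 0.16), Cct5 (0.80 ± 0.15), Cct8 (0.75 ± 0.16) and Cct2 (0.50 ± 0.14) were called higher, against 4.79% of all genes tested, and 22.5% of genes were called lower. Cct6a (0.50 ± 0.18), Cct4 (0.47 ± 0.14) and Tcp1 (0.46 ± 0.14) did not pass, with adjusted p from 0.0626 to 0.0852 by limma. In every one of the 8, all 4 dense fractions were above all 4 middle fractions in both gradients, which held for 11.9% of all genes. The block called all 8 higher, against 14.1% of all genes higher and 39.3% lower, and changed the count of genes called from 3208 to 6275. Quantile normalization called all 8 as well, against 10.3% higher and 13.7% lower. Zones of 3 fractions called 3, against 363 of 11754 genes higher and 2167 lower. With a mean of at least 10 TPM, Cct4 passed as well (adjusted p = 0.0473 by limma), against 618 of 7233 genes higher and 2249 lower. Whether the subunits differ from each other in these contrasts was not tested.

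**Figure D3:**
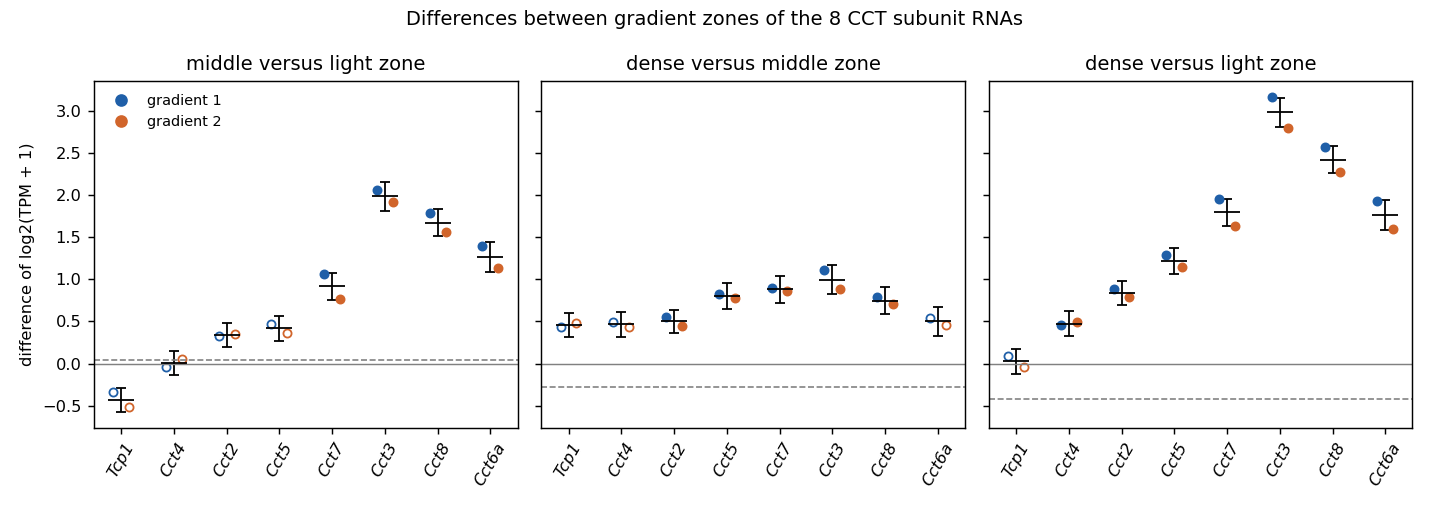
Difference of log2(TPM + 1) between zones (y axis) for each CCT subunit RNA (x axis), in gradient 1 (blue) and gradient 2 (orange). Black bars give the mean with its standard error from limma, filled points mark genes with an adjusted p under 0.05, and the dashed line is the median of all genes tested. From the light to the middle zone the subunits spread from -0.43 (Tcp1) to 1.99 (Cct3), and from the middle to the dense zone all 8 lie between 0.46 and 1.00.

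Between the light and the dense zone most markers of other cell types moved in the opposite direction to most CCT RNAs. Of 6 Kupffer cell markers, 5 fell from the light to the dense zone and none rose, against 39.6% of all genes that fell and 22.3% that rose, and of 4 tested endothelial markers and 4 stellate cell markers 3 each fell. Of 8 hepatocyte markers 3 rose and 3 fell, near those shares, and of 3 red cell markers 2 fell. From the middle to the dense zone, where 5 CCT RNAs rose, 2 red cell markers fell and no marker of the other 4 lists was called in either direction, against 4.79% of all genes that rose and 22.5% that fell. The block called 2 hepatocyte markers higher and 1 endothelial and 1 stellate cell marker lower there, against 14.1% and 39.3%. From the light to the middle zone, where Tcp1 had a negative difference, 5 of 6 Kupffer cell, 3 of 4 endothelial and 2 of 4 stellate cell markers fell and none rose, against 24.1% of all genes that fell. Of 8 hepatocyte markers 1 rose and 3 fell there (3 and 3 with the block), and of 3 red cell markers none was called (1 rose and 1 fell with the block). Of all genes 23.5% rose there without the block, and 37.2% rose and 35.0% fell with it. The part of cell types in the CCT profiles was not tested.

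The coherence of the 8 RNAs was read from the profiles of TPM over the fractions of a gradient, as Pearson's R for each of the 28 pairs. The median R was 0.90 in gradient 1 (17 fractions) and 0.907 in gradient 2 (22 fractions). The median over all pairs of genes with a mean of at least 1 TPM was 0.0645 and 0.113. An R over 0.9 was reached by 14 of the 28 pairs in each gradient, against 4.42% and 2.94% of all pairs. The pairs of all genes include RNAs of far lower level than the CCT RNAs, and no background matched for level was taken. Neighboring fractions resemble each other and the 8 RNAs share their libraries, so these values are descriptions with no test.

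The pairs were not alike. Among Cct2, Cct3, Cct5, Cct6a, Cct7 and Cct8, R ran from 0.899 to 0.992 in gradient 1 and from 0.893 to 0.988 in gradient 2, with a median of 0.963 and 0.962. Cct3 and Cct7 had the highest R in gradient 1 (0.992), and Cct5 and Cct7 in gradient 2 (0.988). Cct4 correlated with the mean of the 7 others at 0.812 in gradient 1 and 0.872 in gradient 2. Tcp1 stood farthest apart, at 0.468 and 0.307. The lowest R of all 28 pairs was that of Tcp1 with Cct6a in both gradients (0.303 and 0.140), and the closest partner of Tcp1 was Cct4 in both (0.761 and 0.643). The order of the 28 pairs was much the same in both gradients, with a correlation of 0.977 between the gradients' R values.

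Apart from Tcp1, these RNAs share a broad rise toward dense fractions, so R was also taken over the steps from each fraction to the next. The median R of the steps was 0.370 in gradient 1 (15 steps) and 0.338 in gradient 2, against a median of 0.0658 and 0.0676 over all pairs of genes. Some pairs kept a high R of steps in both gradients. Tcp1 and Cct4 had 0.794 and 0.757, Cct5 and Cct7 0.802 and 0.735, Cct6a and Cct8 0.759 and 0.687, and Cct2 and Cct5 0.726 and 0.663. Others had none, such as Tcp1 and Cct3 (-0.02 and -0.08) and Cct5 and Cct6a (-0.28 and -0.03). The R values of the steps correlated at 0.810 between the gradients over the 28 pairs.

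The steps can be seen in single fractions. In gradient 1, Tcp1, Cct4, Cct6a and Cct8 stood high at fractions 16 and 19 and lower between. Tcp1 had 221 and 215 TPM there against 188 TPM at both fractions between, and Cct8 had 315 and 327 TPM against 256 and 267 TPM. Cct4 had 193 and 175 TPM against 150 and 159 TPM, and Cct6a had 264 and 269 TPM against 234 and 246 TPM. Cct5 went the other way, with its highest value of 443 TPM at fraction 17. Gradient 2 had no such pair of peaks, with 182, 191, 196 and 205 TPM of Tcp1 at fractions 16 to 19.

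**Figure D4:**
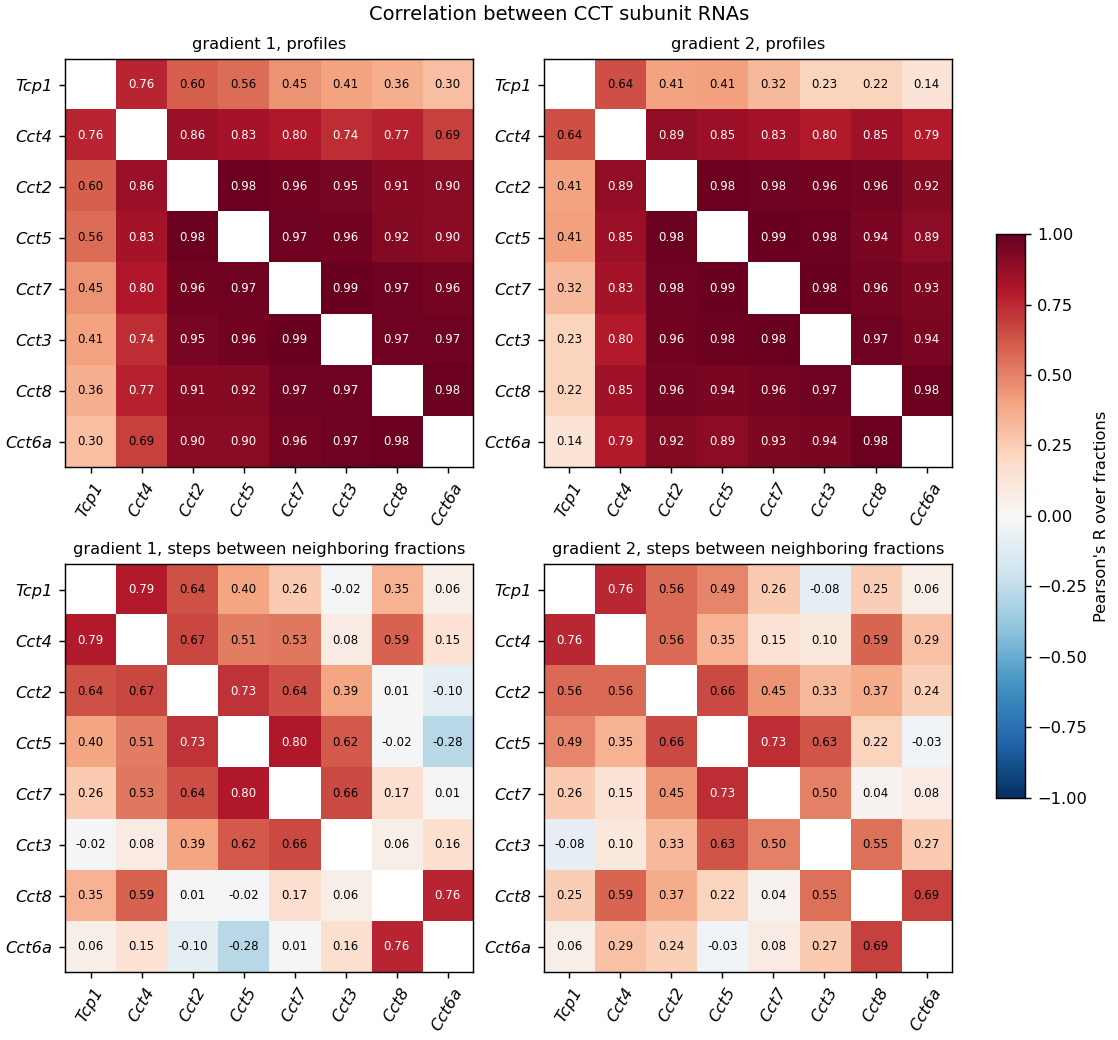
Pearson's R between each pair of CCT subunit RNAs over fractions, for profiles (top) and for the steps between neighboring fractions (bottom), in gradient 1 (left) and gradient 2 (right), on a color scale from -1 to 1. The rows of Tcp1 are palest in the upper panels, with R from 0.14 to 0.76, and in the lower panels Tcp1 with Cct4 and Cct6a with Cct8 stay high in both gradients.

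Most subunits had a profile close to their own in the other gradient, while Cct4 and Tcp1 were below the median of all genes. Over the 17 shared fraction numbers R between gradients ran from 0.820 for Cct4 and 0.858 for Tcp1 to 0.992 for Cct3. The median was 0.963 over the 8 and 0.905 over 11308 genes with a mean of at least 1 TPM, which are not matched for level. Of the 8 profiles of gradient 1, 5 had their own gene as the closest of the 8 in gradient 2, and from gradient 2 to gradient 1 it was 3 (Tcp1, Cct3 and Cct6a). Tcp1 and Cct3 were matched both ways, so the R of each with itself exceeded that with every other subunit. The mean position, the fraction number weighted by TPM over the 17 fractions, was 12.2 ± 0.184 for Tcp1 (SD, n = 2), 12.8 ± 0.00633 for Cct4 and 13.3 ± 0.0711 for Cct2. It was 13.8 ± 0.0410 for Cct5, 14.0 ± 0.286 for Cct6a, 14.4 ± 0.0988 for Cct7, 14.5 ± 0.125 for Cct8 and 15.1 ± 0.176 for Cct3. Of the neighbors in this order, Cct5 and Cct6a alone lay closer than the larger of their SDs. The median over all genes was 11.3 in both gradients.

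Other RNAs had profiles as close to the CCT mean as most subunits. Among 6591 other genes with a mean of at least 10 TPM in both gradients, 668 had R over 0.9 with the mean profile of the 8 subunits in both gradients, and 244 had R over 0.95. The 5 closest, by the lower of the R values of the gradients, were Fh1, the mitochondrial fumarase (0.985), Anxa7, an annexin (0.985), Acadl, a fatty acid oxidation enzyme (0.984), Uqcrc2, a subunit of respiratory complex III (0.984), and Pccb, a subunit of propionyl-CoA carboxylase (0.983). For the subunits themselves the lower R ran from 0.369 for Tcp1 to 0.989 for Cct7, although each subunit is part of that mean.

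Genes that work with CCT were taken from fixed lists. Prefoldin hands unfolded actin and tubulin to CCT, and its 6 subunit RNAs did not go in 1 direction. From the light to the middle zone 4 of 6 rose and none fell, against 23.5% of all genes that rose, and the block also called Pfdn5 lower, against 35.0% of all genes. From the middle to the dense zone 5 of 6 fell and none rose, with a median of -1.25, against 22.5% of all genes that fell, whereas no CCT RNA fell. The difference between the lists was not tested. Pfdn5 fell from 241 and 268 TPM to 124 and 119 TPM (-1.06 ± 0.17), and Pfdn2 from 191 and 201 TPM to 77.5 and 66.5 TPM (-1.45 ± 0.20). Pfdn6 had 207 and 186 TPM in the middle zones and 190 and 134 TPM in the dense zones (-0.25 ± 0.22) and did not pass. From the light to the dense zone 2 of the 6 rose, Pfdn6 (2.57 ± 0.22) and Pfdn2 (1.1 ± 0.20), and Pfdn5 fell (-1.55 ± 0.17), against 22.3% of all genes that rose and 39.6% that fell. The block called 3 higher and 2 lower, against 30.5% and 50.0%. The median pairwise R of prefoldin RNAs was 0.177 in gradient 1 and 0.347 in gradient 2.

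Of 10 tested RNAs of actin and tubulin, the main clients, 7 rose from the middle to the dense zone and none fell, with a median of 1.16, against 4.79% of all genes that rose. From the light to the dense zone 7 rose and 1 fell, against 22.3% and 39.6% of all genes. Their median pairwise R was 0.908 in gradient 1 and 0.617 in gradient 2, with lowest values of -0.74 and -0.70. Actb, beta-actin, went from 596 and 676 TPM in the light zones through 1660 and 1542 TPM to 3694 and 3275 TPM in the dense zones (light to dense 2.47 ± 0.18), and its R with the CCT mean profile was 0.953 and 0.981. Tubb4b rose by 2.48 ± 0.26 and Tuba4a by 1.54 ± 0.17. Of 6 tested RNAs of WD-repeat clients, proteins with a propeller fold that CCT also folds, 3 rose and 1 fell from the light to the dense zone, against 22.3% and 39.6% of all genes. Gnb2 rose (1.63 ± 0.26) and Gnb1 fell (-1.79 ± 0.17). From the middle to the dense zone none rose and 1, Gnb1, fell (-1.35 ± 0.17), with a median of -0.043, against 22.5% of all genes that fell. The block called 1 higher and 1 lower, against 14.1% and 39.3% of all genes.

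Among helpers, 2 of 3 tested phosducin-like and thioredoxin-like cochaperones rose from the light to the dense zone, Pdcl3 (1.57 ± 0.23) and Txndc9 (0.86 ± 0.18), against 22.3% of all genes, while Pdcl had 0.82 ± 0.30 and was called with the block only. Of the 5 tubulin cofactors, which assemble tubulin after CCT, 4 rose over the same zones, against the same 22.3%, with Tbcb at 2.28 ± 0.25 and Tbcd at 1.37 ± 0.17, and Tbca was not called (-0.16 ± 0.16). From the middle to the dense zone none of the 5 rose and Tbca fell (-1.63 ± 0.16), with a median of 0.18, against 4.79% of all genes that rose and 22.5% that fell, and the block called 2 higher and 1 lower, against 14.1% and 39.3%. Of 10 genes of the cytosolic Hsp70 and Hsp90 system 6 rose and none fell from the light to the dense zone, and the block called 9 higher, against 22.3% of all genes without the block and 30.5% with it. Hsp90aa1 rose by 2.19 ± 0.23 and Hsp90ab1 by 0.82 ± 0.18, while for Hspa8 (-0.88 ± 0.54) the gradients differed, with 2410 TPM in the light and 651 TPM in the dense zone of gradient 1, and 1741 and 1776 TPM in gradient 2. For the mitochondrial chaperonin, Hspd1, its barrel, rose by 0.88 ± 0.26 and Hspe1, its lid, had 0.68 ± 0.27 and passed with the block only. Hspe1 was highest in the middle zone, since it rose from the light to the middle zone (2.17 ± 0.27) and fell from there to the dense zone (-1.49 ± 0.27). R between Hspd1 and Hspe1 was -0.18 and -0.23. The chaperonin-like protein Mkks fell by 1.40 on this scale, and Bbs10 had 0.31 ± 0.32.

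The subunits of the core proteasome and the cytosolic aminoacyl-tRNA synthetases, enzymes that only in part form a complex, were set beside CCT. All 14 core proteasome RNAs were higher in the dense than in the light zone (median 2.70), against 22.3% of all genes. From the middle to the dense zone 5 of 14 rose (8 with the block), against 4.79% of all genes (14.1% with the block). Their median pairwise R was 0.942 and 0.935, and the lowest pair had 0.545 and 0.531. Psmb4, Psmb6 and Psmb7, the most abundant, rose from the light to the dense zone by 2.71, 2.80 and 2.69. Of 20 synthetase RNAs 19 rose from the light to the dense zone and 8 from the middle to the dense zone (16 with the block), against the same shares of all genes, with a median pairwise R of 0.949 and 0.911. Aars rose from the light to the dense zone by 2.63 ± 0.18, Eprs by 2.03 ± 0.18 and Nars by 1.52 ± 0.14. The lists differ in size and were not tested against each other. The lowest R of a pair of CCT RNAs, 0.303 and 0.140, was below that of the proteasome and above that of the synthetases (-0.17 and -0.29).

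**Figure D5:**
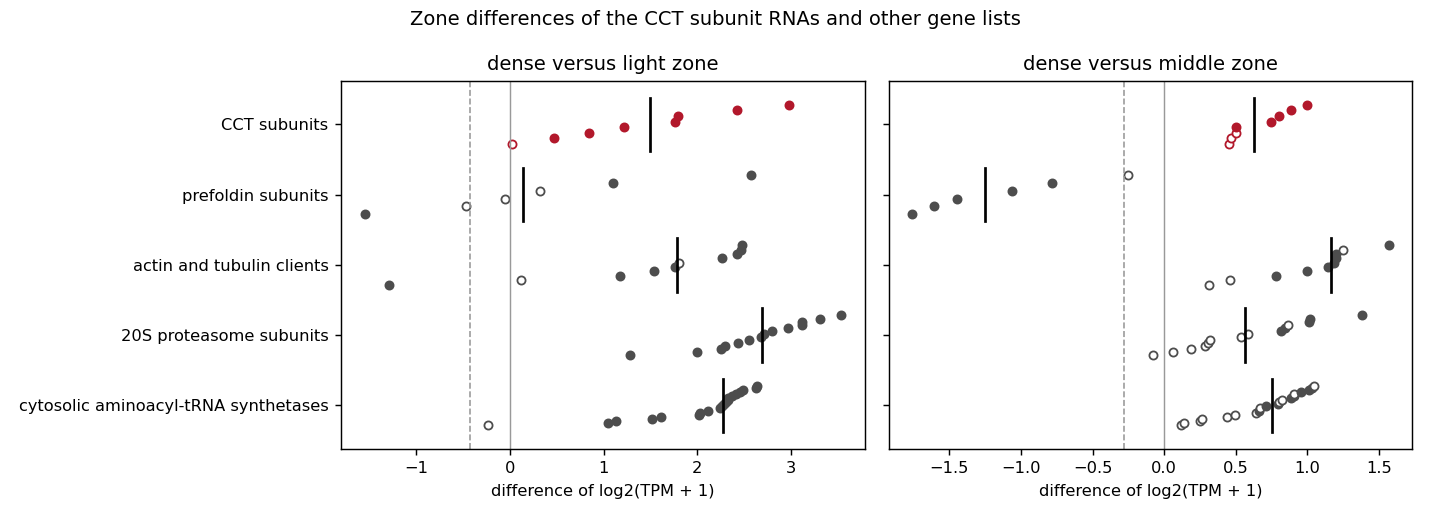
Difference of log2(TPM + 1) between zones (x axis) for each gene tested in 5 lists (y axis), from the light to the dense zone (left) and from the middle to the dense zone (right). Filled points mark genes with an adjusted p under 0.05 by limma, thick bars the median of a list, and the dashed line the median of all genes. The medians from the middle to the dense zone are 0.63 for CCT, -1.25 for prefoldin and 1.16 for actin and tubulin.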

How the data were processed

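From each fraction the authors made stranded, ribosomal RNA-depleted libraries. Kallisto quantified them against mm10 RefSeq transcripts. The deposited values are TPM, 1 row per symbol, for genes above 1 TPM somewhere in the gradient. The submitters' processing notes name bcl2fastq 2.16.0.10 and kallisto without a version. The number of value columns with no matching sample was 0. The depth is unknown, and precision comes only from the 2 gradients.

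From these values, profiles, shares, Pearson's R and Spearman's rho were computed in Python 3.11.15 with NumPy 2.4.6 and pandas 2.3.3. The zones were compared with limma 3.58.1 in R 4.3.3 (eBayes with trend, Benjamini-Hochberg adjustment) on means of log2(TPM + 1), for genes with a mean of at least 1 TPM over the 24 zone libraries. The gradient numbers pair the zones because the zones of a gradient are fractions of 1 homogenate, and deviations of the gradients correlated across genes between zones at 0.540 to 0.798. limma was tested on simulated data: of genes changed by 1, 2 and 3 on the log2 scale between the light and dense zones, it called 23.9% of 67, 68.7% of 67 and 84.8% of 66, and 5 unchanged genes, among 11754 genes in all. The simulated noise was independent between zones and few genes were changed. In the data the zones of a gradient share deviations and 7274 genes were called between the dense and light zones. The simulated rates therefore do not give the power or the false calls of these contrasts.

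The members and gene lists were chosen with earlier results of these data known. All 8 subunits are named, then at most the 3 most abundant genes of each list, the 5 genes closest to the mean CCT profile, and genes over a CCT gene on the same strand or CCT pseudogenes. Acat3 and Cct6b were named after their values were seen. Loci, transcripts and coding sequences are from GENCODE M21, and runs of 31 bases were matched on the same strand. Alternatives were the pseudocount, filters, scalings, zone borders, the replicate block, a fit over single fractions and other measures of correlation. Tubb2b and Pdcl2 have no row in either table. Protein measurements were not used here.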

Additional observations from a re-analysis of the deposited data

How the results depend on the processing

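Without a gradient there are no residual degrees of freedom, so no count of calls could be fitted, and only the value of each subunit was recomputed. With the gradient as a replicate block, 7 CCT RNAs (in place of 4) and 8478 genes were called between the middle and light zones, and 8 CCT RNAs (in place of 5) and 6275 genes between the dense and middle zones. The fit over single fractions called 7 and 8494, and 8 and 6560. A mean of at least 10 TPM left 4798 genes called between the dense and light zones among fewer genes tested. Between the dense and middle zones quantile normalization and the rescaling without the 50 most abundant genes called 8 CCT RNAs each. Of the 11754 genes tested, these settings called 1208 and 790 higher and 1605 and 2486 lower. Zones of 3 fractions called 3 CCT RNAs, against 363 genes higher and 2167 lower. The cause was not tested.

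Differences that turned sign were all of genes without a call in the fit without the block. Between the dense and light zones Tcp1 went to -0.35 with quantile normalization, -0.031 with the rescaling, -0.047 with zones of 3 fractions and -0.040 without gradient 1 (0.089 without gradient 2). Between the middle and light zones quantile normalization gave -0.028 for Cct2, -0.33 for Cct4 and -0.033 for Cct5, and Cct4 was at -0.13 with the rescaling and -0.037 without gradient 2 (0.057 without gradient 1). Of 192 values of single subunits under alternatives with a test, 157 kept their direction and side of the threshold, 24 gained a call and 4 lost one.

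The median pairwise R of the CCT RNAs in gradients 1 and 2 was 0.858 and 0.891 with log2(TPM + 1) profiles, 0.869 and 0.870 as Spearman's rho, 0.370 and 0.338 for differences between neighboring fractions, 0.798 and 0.842 with quantile normalization, and 0.963 and 0.962 without Tcp1 and Cct4, a choice made after seeing the data. Over the 16 fractions left when the shared fractions lose fraction 21, it was 0.923 in gradient 2. The median R between gradients was 0.977 on the log2 scale, 0.969 with quantile normalization, 0.952 with fraction numbers shifted down by 1, and 0.495 for differences between neighboring fractions. The causes were not tested.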
